A study of Mus musculus with 12 samples.

Results

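The 36 genes described here encode proteins that drive or carry out the cell cycle. They were chosen by symbol, and the 36 symbols were all found among the 57180 gene IDs of the deposited expression table. They fall into 3 G1 cyclins, 8 genes of S phase and 25 genes of mitosis. Each was followed through 12 mouse libraries in 4 groups of 3. The liver groups were CCl4-treated and vehicle-treated C57 mice, profiled as bulk RNA. CCl4, carbon tetrachloride, is a solvent that injures hepatocytes. The design text speaks of hepatocytes and the sample labels of liver, so the material is called liver. The skin groups were CX3CR1+ cells from dorsal skin of CCl4-treated and vehicle-treated Cx3cr1-creER:Ai9 mice, profiled with smart-seq, which amplifies full-length cDNA from little RNA. In that strain the Cx3cr1 locus drives an inducible Cre recombinase, and Ai9 is a tdTomato reporter that Cre switches on. The design text gives biological triplicates, and says nothing of dose, time after treatment, sex or age. Values are TPM, in which transcript abundance is scaled for length and to 1 common total per library, so they hold no sequencing depth.

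Hepatocytes of a resting adult liver rarely divide, and enter the cycle after injury or loss of tissue. D-type cyclins with their kinases inactivate the retinoblastoma protein, which frees E2F factors to switch on cyclin E and the genes of DNA replication. Later, Cdk1 with cyclins A and B drives mitosis, and many mitotic genes are switched on late in the cycle by the MuvB complex with B-Myb and Foxm1, through a promoter element called the CHR that often stands beside CCAAT boxes bound by NF-Y.

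Promoter sequence was available for 28 of the 36 genes, 20 mitotic, 7 of S phase and 1 G1 cyclin, in windows of 250 bases before to 50 bases after the start (RefSeq, GRCm38.p6, another build than the GRCm39 of the expression table). The motifs were searched on both strands. The CHR was taken as TTTGAA and also as TTCGAA, and the CCAAT box as those letters. E2F was taken as TTTGGCG and also as TTTCGCG and also as TTCCCGC. E2F matches may overlap each other, as they do in Mcm6. A CHR match was present in 16 of 20 mitotic promoters (80.0%) and 1 of 7 S phase promoters (14.3%), against 21.7% of 27025 genes with a promoter. CCAAT was present in 18 of 20 mitotic (90.0%) and 6 of 7 S phase promoters (85.7%), against 41.1% of all. An E2F match was present in 1 of 20 mitotic (5.0%) and 3 of 7 S phase promoters (42.9%), against 7.6% of all. CHR and CCAAT stood together in 16 of 20 mitotic promoters, against 8.6% of all. A match is a description of the letters and not a measured binding site. The 120 bases before the start are shown for 4 mitotic genes among those with large changes in liver, for 1 gene of S phase that rose and for 1 that did not, with every motif match in capitals.
Cdk1 promoter, chr10:69352913-69353032, - strand: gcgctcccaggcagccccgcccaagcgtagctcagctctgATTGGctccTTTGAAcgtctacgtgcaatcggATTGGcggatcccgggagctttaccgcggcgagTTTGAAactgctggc
Cdc20 promoter, chr4:118437344-118437463, - strand: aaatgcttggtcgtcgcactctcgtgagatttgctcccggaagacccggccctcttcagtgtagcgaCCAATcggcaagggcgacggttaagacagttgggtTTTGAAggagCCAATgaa
Ube2c promoter, chr2:164769809-164769928, + strand: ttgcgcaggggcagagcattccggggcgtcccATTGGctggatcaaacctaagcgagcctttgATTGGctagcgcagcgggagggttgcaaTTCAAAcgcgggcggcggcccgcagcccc
Top2a promoter, chr11:99024190-99024309, - strand: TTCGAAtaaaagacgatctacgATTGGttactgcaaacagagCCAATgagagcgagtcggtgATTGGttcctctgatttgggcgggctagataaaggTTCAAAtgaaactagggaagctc
Mcm6 promoter, chr1:128359706-128359825, - strand: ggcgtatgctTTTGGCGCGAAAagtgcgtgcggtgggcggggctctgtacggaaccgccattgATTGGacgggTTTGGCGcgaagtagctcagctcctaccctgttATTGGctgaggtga
Pcna promoter, chr2:132253181-132253300, - strand: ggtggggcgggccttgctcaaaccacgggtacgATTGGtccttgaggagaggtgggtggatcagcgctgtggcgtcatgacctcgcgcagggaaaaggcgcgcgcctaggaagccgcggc
In the Cdk1 window the CHR letters lie at 71 and 15 bases before the start, and in the Cdc20 window at 18. The Mcm6 window holds 3 E2F matches and no CHR match. The Pcna window holds 1 CCAAT match, read on the other strand, and neither of the other motifs. The windows shown do not stand for all genes. Ccnb1, Ccnb2 and Rrm2, not shown, were also higher in every CCl4 liver than in any vehicle liver. Ccnb1 had CCAAT matches and no CHR match, and Ccnb2 had CHR matches only outside the 120 bases. Rrm2 had a CCAAT match and no E2F match. A link between motifs and changes was not tested.

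In liver, every mitotic gene was higher in all CCl4 libraries than in any vehicle library, as were 15.1% of the 24989 genes above 0 TPM in at least 1 liver library. All but Cenpa were below 1 TPM in every vehicle liver. Summed over the 25 mitotic genes, the TPM was 91.7, 61.96 and 203.7 in CCl4 libraries, against 4.1, 5.11 and 4.43 in vehicle libraries. The means were 119 ± 74.8 with CCl4 and 4.55 ± 0.515 with vehicle (SD, n = 3 each), a ratio of 26.2. Without CCl4 replicate 3, the highest library, the CCl4 mean was 76.8 and the ratio 16.9. The 3 G1 cyclins summed to 19.4 ± 3.97 TPM with CCl4 and 2.31 ± 0.69 with vehicle, a ratio of 8.41. The 8 S phase genes summed to 35.2 ± 7.66 TPM with CCl4 and 24.0 ± 0.968 with vehicle, a ratio of 1.47. Without Pcna, which alone held over 12 TPM of each vehicle sum, the S phase sums averaged 22.3 ± 5.92 TPM with CCl4 and 10.6 ± 1.53 with vehicle, a ratio of 2.11. In each of these sums every CCl4 liver was above every vehicle liver. In bulk RNA, more cells of a cycling type and more RNA per cell cannot be told apart.

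**Figure D1:**
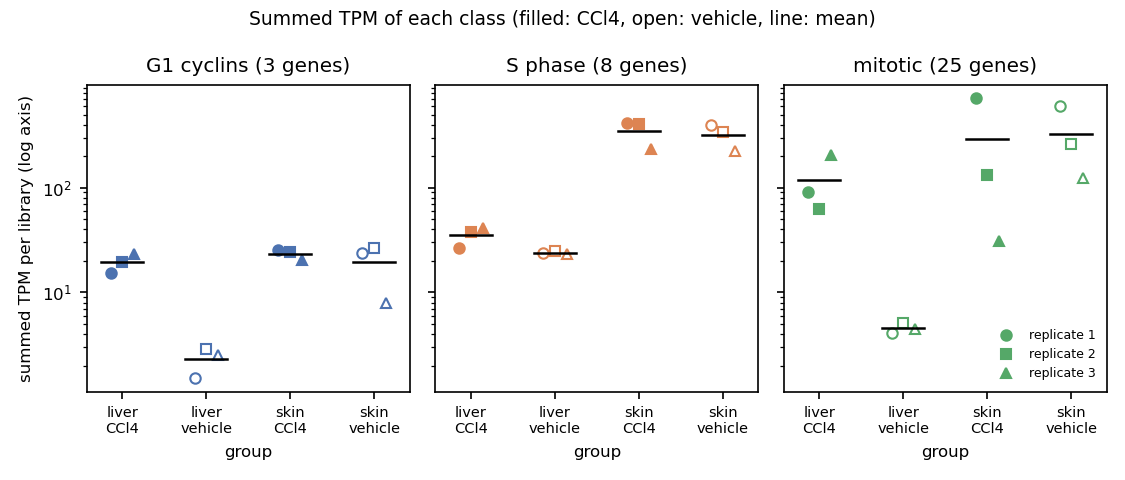
Summed TPM of each class per library on a log axis, with filled points for CCl4, open points for vehicle, a shape for each replicate and a line at the group mean. In liver the mitotic sums lie at 61.96 to 203.7 with CCl4, above 4.1 to 5.11 with vehicle, whereas the skin groups overlap in all 3 classes. Cenpa holds a large part of the skin mitotic sums. Without Cenpa, which is not drawn, they are 13.77 to 61.63 with CCl4 and 87.06 to 123.9 with vehicle, and do not overlap.

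Gene by gene, all 3 CCl4 livers were above all 3 vehicle livers for 33 of the 36 genes, where 15.1% of all genes listed above 0 in liver showed this. They were 25 of 25 mitotic genes, 3 of 3 G1 cyclins and 5 of 8 S phase genes; the exceptions were Mcm4, Pcna and Tyms. Changes are given as CCl4 minus vehicle on the log2(TPM + 1) scale, which understates the change of low genes. The median change was 1.92 for mitotic genes (range 0.90 to 3.55), 0.83 for S phase genes (-0.07 to 1.24) and 0.45 for G1 cyclins (0.32 to 2.78). The median over all genes past the filter, which asked for 1 TPM or more in 3 or more of the 6 livers, was -0.59. Without the filter, which not all of the 36 genes passed, it was -0.02. As plain ratios of mean TPM, the class medians were 47.3 for mitotic, 2.92 for S phase and 5.24 for G1 genes.

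Fitted across all genes without a filter, limma called 29 of the 36 genes higher with CCl4 and none lower, at an adjusted p under 0.05, with 8.03% of 24989 genes called higher. The 29 were 23 mitotic genes, 4 of S phase and 2 G1 cyclins. The 7 not called were Aurka, Kif20a, Rrm2, Ccne2, Mcm4, Pcna and Tyms. Past the filter, 25 of the 36 genes were tested and 23 called higher, with 10.3% of 10385 genes called higher and 51.1% lower. For 19 of those 25, fewer than 3 vehicle livers reached 1 TPM, so they passed through their CCl4 values, and the count among them does not stand alone. Just inside the filter were Bub1b, whose lowest CCl4 liver had 1.03 TPM, and Aurkb with 1.08, and just outside were Kif11 with 0.90 and Hmmr with 0.89. Of the 11 genes that failed the filter, 10 reached the smallest p that an exact permutation test of 3 libraries against 3 can give, 0.1, and Mcm4 had an exact permutation p = 0.2.

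Mitochondrially encoded genes and 9 near-copy pseudogenes held 76.8% ± 7.60 of TPM in CCl4 livers and 26.7% ± 1.51 in vehicle livers (SD, n = 3 each), which leaves less of the total for all other genes with CCl4. With these genes left out of the total, limma called all 36 genes higher in the fit without a filter, where 36% of all genes were called higher, and the class medians were 3.69 for mitotic, 2.33 for S phase and 1.49 for G1 genes. The 23 genes called past the filter remained called higher under this scaling, median-ratio scaling and quantile normalization alike. The mitotic median was thus the highest of the 3 classes on both totals.

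**Figure D2:**
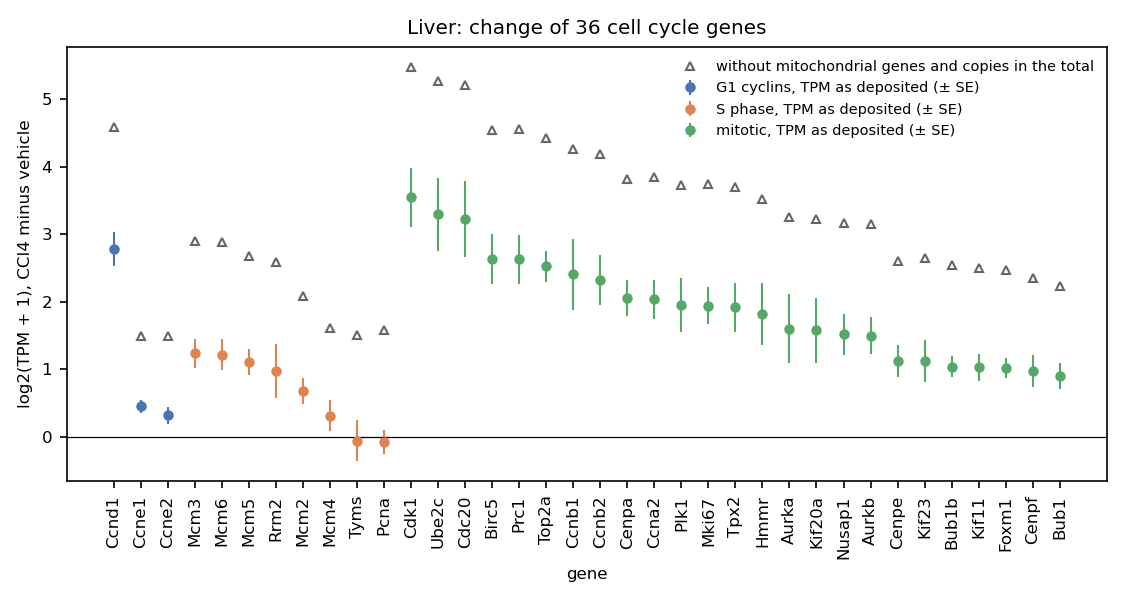
Change in liver of each gene, CCl4 minus vehicle, on the log2(TPM + 1) scale, with filled points and SE from the fit without a filter for TPM as deposited and open triangles for TPM without mitochondrial genes and copies. Pcna and Tyms lie at -0.07 and -0.05 as deposited and at 1.58 and 1.50 on the other total, and every mitotic gene lies at 0.90 or above on both.

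Among the G1 cyclins, Ccnd1, the D-type cyclin through which growth signals enter the cycle, had 14.30, 18.31 and 21.78 TPM in CCl4 livers, against 1.08, 2.47 and 1.86 TPM in vehicle livers. Every CCl4 liver was above every vehicle liver, and the rise was 2.78 ± 0.25 (SE; limma adjusted p = 2.86e-05). With the mitochondrial genes left out of the total it had 79.9, 92.7 and 68.3 TPM in CCl4 livers, against 1.51, 3.33 and 2.50 TPM in vehicle livers. Ccne1, the cyclin that activates Cdk2 at the entry to S phase, stayed below 1 TPM in every liver. It had 0.32, 0.58 and 0.62 TPM with CCl4, against 0.07, 0.12 and 0.10 TPM with vehicle, and rose by 0.45 ± 0.09 (adjusted p = 0.0202 in limma's fit without a filter). Its paralog Ccne2 had 0.67, 0.76 and 0.82 TPM with CCl4, against 0.38, 0.26 and 0.58 TPM with vehicle. These groups did not overlap either, but the difference of 0.32 did not pass (limma adjusted p = 0.12 without a filter).

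The S phase genes split in their response. Mcm2 to Mcm6, with Mcm7 outside this group, form the ring-shaped helicase that unwinds DNA at origins. Mcm3 had 3.43, 5.76 and 3.59 TPM in CCl4 livers, against 1.03, 1.28 and 1.27 TPM in vehicle livers, and Mcm5 had 1.24, 2.24 and 2.15 TPM with CCl4, against 0.30, 0.33 and 0.31 TPM with vehicle. Both rose, by 1.24 ± 0.21 and 1.11 ± 0.19 (limma adjusted p = 0.0007 and 0.000759). Mcm6, whose promoter window with 3 E2F matches is shown above, had 3.08, 3.72 and 3.59 TPM with CCl4, against 0.56, 1.58 and 0.74 TPM with vehicle, and rose by 1.22 ± 0.22. Mcm2 rose by 0.68 ± 0.19 in the fit without a filter (limma adjusted p = 0.045), and Mcm4, at 0.87, 1.93 and 0.83 TPM with CCl4 and 0.55, 0.82 and 0.85 TPM with vehicle, overlapped between the groups.

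Pcna, the sliding clamp of DNA polymerases, was the most abundant of the 36 genes in vehicle liver. It had 10.11, 15.56 and 12.95 TPM in CCl4 livers, against 13.62, 12.78 and 13.84 TPM in vehicle livers, so the groups overlapped (limma adjusted p = 0.803). Tyms, which makes thymidylate for DNA synthesis, had 3.46, 4.06 and 7.88 TPM with CCl4, against 5.86, 5.71 and 3.87 TPM with vehicle, and overlapped too (limma adjusted p = 0.872). Without mitochondrial genes in the total both were higher with CCl4, by 1.58 and 1.50 (limma adjusted p = 0.0013 and 0.000969), where 66.8% of genes were called higher. Rrm2, the small subunit of ribonucleotide reductase, had 3.54, 2.63 and 8.92 TPM with CCl4, against 1.24, 2.12 and 2.06 TPM with vehicle. It rose by 0.98 ± 0.33 (limma adjusted p = 0.0223), and by 0.55 without CCl4 replicate 3. The call was lost without CCl4 replicate 1 or vehicle replicate 1 (limma adjusted p = 0.0617 and 0.0538) and in the fit without a filter (limma adjusted p = 0.124). Pcna and Tyms also share sequence with other genes: 40.6% of the 25-base words of Pcna transcripts and 22.7% of those of Tyms occur in other annotated transcripts. Genes that rose ranged widely in this share, with 0.1% for Ccna2, 19.9% for Rrm2, 35.6% for Cdc20 and 48.0% for Ccnb1. How the authors' counting split such reads can move any of these genes, and its part in their values was not tested.

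Of the mitotic cyclins and their kinase, all 4 rose. Cdk1, the kinase of mitotic entry, had 15.14, 7.98 and 29.87 TPM in CCl4 livers, against 0.46, 0.37 and 0.40 TPM in vehicle livers. It rose by 3.55 ± 0.35, the largest change of the 36 genes on the log2(TPM + 1) scale (limma adjusted p = 4.71e-05). Ccna2, the cyclin of S phase and G2, had 2.99, 3.51 and 6.65 TPM with CCl4, against 0.32, 0.43 and 0.06 TPM with vehicle, and rose by 2.03 ± 0.25. Ccnb1 and Ccnb2, the B-type cyclins, rose by 2.41 ± 0.41 and 2.32 ± 0.30. Ccnb1 had 4.98, 1.78 and 11.32 TPM with CCl4, against 0.02, 0.28 and 0.05 TPM with vehicle, and its transcripts share 48.0% of their 25-base words with other genes, mostly the pseudogene Ccnb1-ps.

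Foxm1, a transcription factor of mitotic genes, was low in absolute terms, at 0.95, 0.81 and 1.55 TPM in CCl4 livers, against 0.03, 0.01 and 0.03 TPM in vehicle livers, and rose by 1.02 ± 0.15 in the fit without a filter (limma adjusted p = 0.0118). The kinases Plk1, Aurka and Aurkb, which govern centrosomes, the spindle and chromosome attachment, rose by 1.96 ± 0.32, 1.60 ± 0.39 and 1.50 ± 0.24. Aurkb had 1.08, 1.58 and 3.32 TPM with CCl4, against 0.03 TPM in vehicle replicate 2, and was listed at 0 in the other vehicle livers. Aurka had 3.33, 1.51 and 9.37 TPM with CCl4, against 0.72, 0.40 and 0.67 TPM with vehicle, and its rise was 1.05 without CCl4 replicate 3. Without a filter Aurka did not pass (limma adjusted p = 0.0626). Birc5, survivin, the partner of Aurkb in the chromosomal passenger complex, had 4.90, 3.84 and 11.77 TPM with CCl4, against 0.17, 0.20 and 0.08 TPM with vehicle, and rose by 2.64 ± 0.30.

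Cdc20, the activator of the anaphase-promoting complex, and Ube2c, its ubiquitin-conjugating enzyme, changed most after Cdk1 on that scale. Cdc20 had 7.99, 3.51 and 22.16 TPM in CCl4 livers, against 0.08, 0 and 0.06 TPM in vehicle livers, and rose by 3.23 ± 0.44 (limma adjusted p = 0.000233). Ube2c had 10.84, 3.88 and 21.97 TPM with CCl4, against 0.11, 0.06 and 0.19 TPM with vehicle, and rose by 3.30 ± 0.42 (limma adjusted p = 0.000166). In both, the 3 CCl4 livers differed widely, with replicate 3 highest and replicate 2 lowest. The spindle checkpoint genes Bub1b and Bub1 changed less, by 1.04 ± 0.18 and, in the fit without a filter, 0.90 ± 0.19. Bub1 was listed at 0 in 2 vehicle livers. Cdc20 shares 35.6% of its 25-base words with other genes, and overlaps Elovl1 on the other strand as Ube2c overlaps Tnnc2; the sources do not say whether the authors' counting used strand.

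Of the 7 genes of the spindle and of cytokinesis, Prc1, which bundles the microtubules of the central spindle, changed most on that scale. It had 4.26, 3.77 and 10.65 TPM in CCl4 livers, against 0, 0.03 and 0.19 TPM in vehicle livers, and rose by 2.63 ± 0.30. Tpx2, an activator of Aurka on spindle microtubules, rose by 1.92 ± 0.30, and the microtubule-binding Nusap1 by 1.52 ± 0.26. Hmmr, a hyaluronan receptor that also acts at the spindle, had 2.43, 0.89 and 6.05 TPM with CCl4, against 0.01, 0.03 and 0.01 TPM with vehicle, and rose by 1.81 ± 0.46 in the fit without a filter (limma adjusted p = 0.0344). Among the kinesin motors, Kif11, which pushes spindle poles apart, and Kif23, a motor of the central spindle, rose by 1.03 ± 0.19 and 1.12 ± 0.31 in that fit. Kif20a, a motor of cytokinesis, rose by 1.58 ± 0.37 past the filter (limma adjusted p = 0.00414) and did not pass without one (limma adjusted p = 0.0564).

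Cenpa, the histone H3 variant that marks centromeres, was the 1 mitotic gene with at least 1 TPM in every vehicle liver. It had 6.46, 7.41 and 12.90 TPM in CCl4 livers, against 1.29, 1.04 and 1.61 TPM in vehicle livers, and rose by 2.05 ± 0.25 (limma adjusted p = 0.000129). Cenpe, a kinetochore motor, and Cenpf, a kinetochore-associated protein, rose by 1.12 ± 0.23 and 0.98 ± 0.24 in the fit without a filter. Cenpf was listed at 0 in 2 vehicle livers, and was highest in CCl4 replicate 1, with 1.72, 0.40 and 1.03 TPM in the CCl4 livers. Mki67, the proliferation antigen Ki-67, had 2.22, 2.22 and 4.97 TPM with CCl4, against 0.02, 0.05 and 0.02 TPM with vehicle, and rose by 1.94 ± 0.24. Top2a, the topoisomerase that untangles replicated chromosomes, had 4.71, 4.98 and 7.94 TPM with CCl4, against 0.10, 0.32 and 0.10 TPM with vehicle, and rose by 2.53 ± 0.21 (limma adjusted p = 1.58e-05). It had the lowest adjusted p of the 36 genes in the filtered liver fit, and its 3 CCl4 livers were close on the total without mitochondrial genes, at 26.3, 25.2 and 24.9 TPM.

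**Figure D3:**
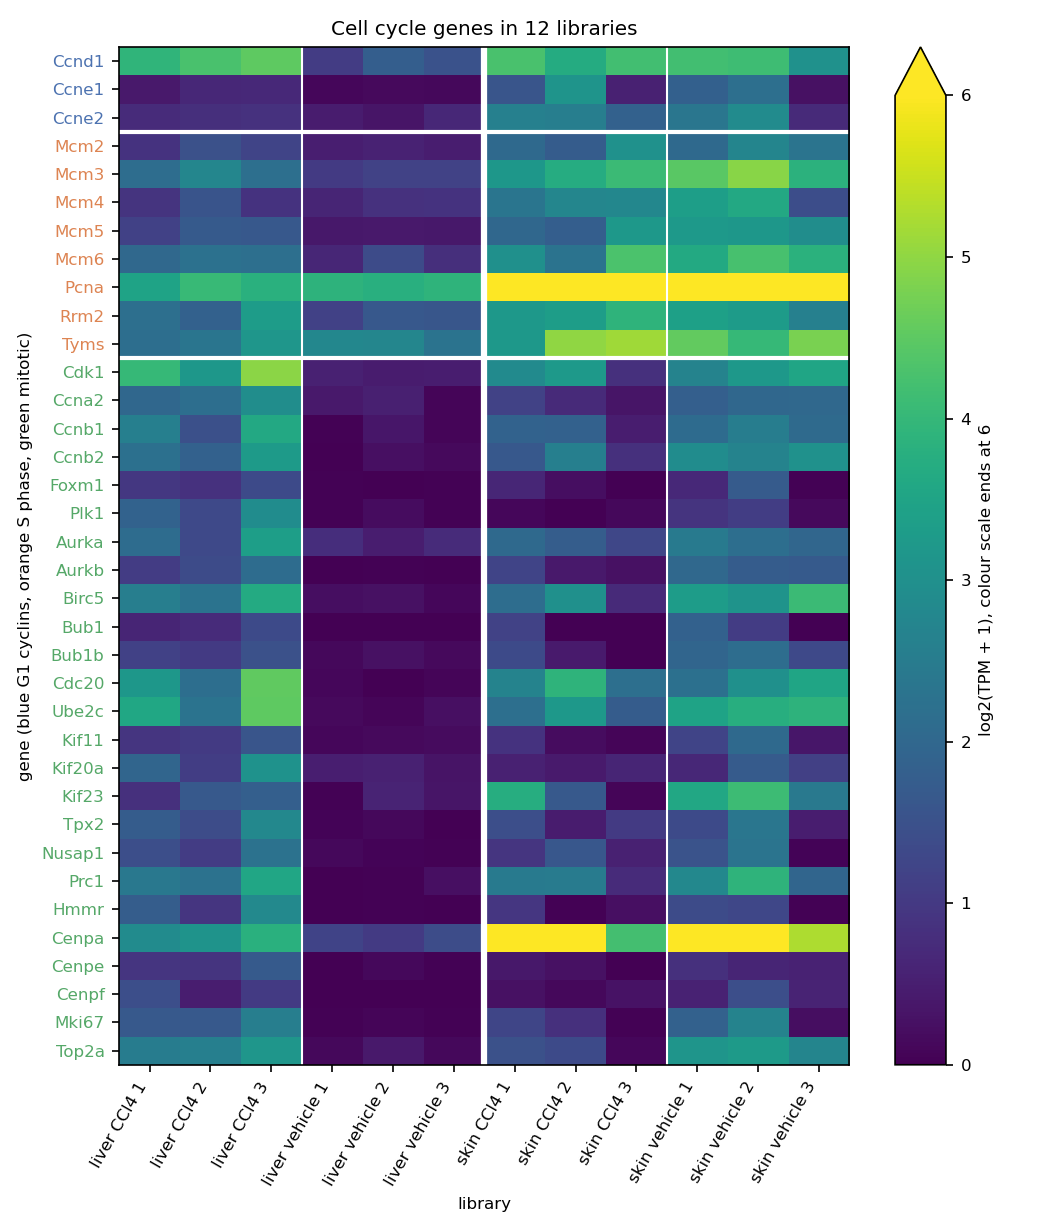
Each gene in each library as log2(TPM + 1), with G1 cyclins, S phase genes and mitotic genes from top to bottom, the CCl4 libraries left of the vehicle libraries in each tissue, and the colour scale ending at 6. The mitotic rows are dark in the 3 vehicle livers, and Pcna in all skin libraries and Cenpa in 4 of them exceed the scale.

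The 3 CCl4 livers did not rank alike for the classes. Replicate 3 was highest for 24 of 25 mitotic genes and replicate 2 lowest for 17, whereas replicate 2 was highest for 6 of 8 S phase genes. The ratio of summed mitotic to summed S phase TPM, which does not depend on the total, was 3.45, 1.64 and 4.94 in the CCl4 livers, against 0.174, 0.203 and 0.19 in the vehicle livers. On the total without mitochondrial genes, replicate 3 was highest for 20 of 25 mitotic genes and replicate 2 lowest for 18, while replicate 2 was highest for 6 of 8 and replicate 3 lowest for 6 of 8 S phase genes. The G1 cyclins changed their order with the total: replicate 3 was highest for all 3 as deposited, and replicate 2 for all 3 without mitochondrial genes.

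**Figure D4:**
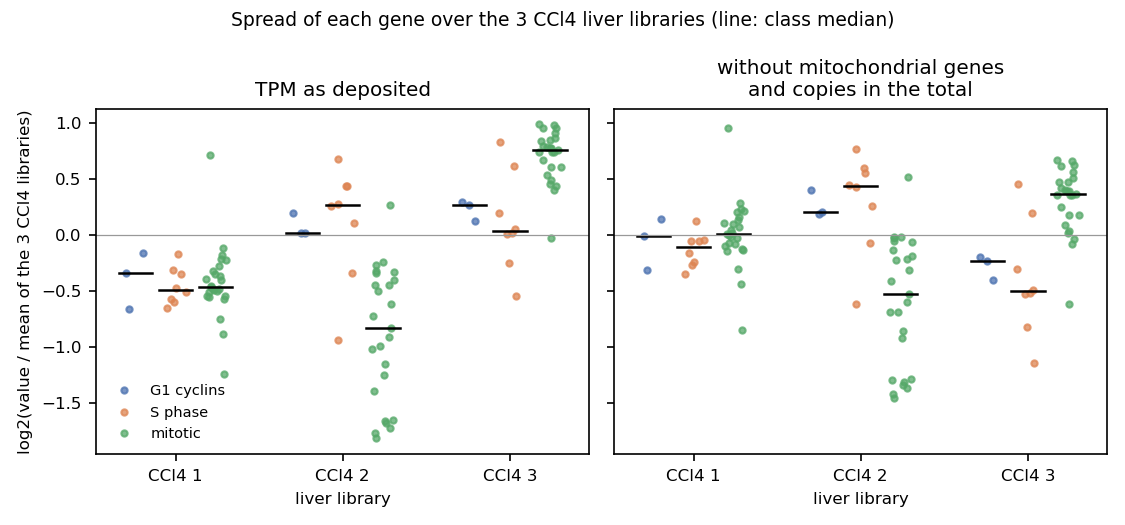
Value of each gene in each CCl4 liver relative to its mean over the 3 CCl4 livers, on a log2 scale, for TPM as deposited (left) and for TPM without mitochondrial genes and copies (right), with black lines at the class medians. In both panels the mitotic genes are mostly highest in replicate 3 and lowest in replicate 2, and most S phase genes are highest in replicate 2.

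Markers of cell types also ranked the CCl4 livers. The summed TPM of 6 hepatocyte markers was 11818, 14170 and 28486 in CCl4 replicates 1 to 3, against 58837 to 65895 in vehicle livers. On the total without mitochondrial genes it was 66013, 71736 and 89324 with CCl4, against 82160 to 88955 with vehicle. The sums then overlapped. Alb held most of each sum, with 8884, 10833 and 21657 TPM in CCl4 livers as deposited, against 40168 to 45635 TPM with vehicle. The sum and its overlap thus mostly follow Alb. The overlap need not hold for the other markers, which were not compared singly on that total. The sum of 6 endothelial markers was 168, 343 and 112 TPM with CCl4, against 18.1 to 22.3 TPM with vehicle, and that of 6 Kupffer cell markers 213, 199.7 and 81.1 TPM with CCl4, against 19.3 to 50.6 TPM with vehicle. The sum of 5 neutrophil markers was 108, 349.6 and 32.8 TPM with CCl4, against 0.07 to 0.77 TPM with vehicle, where 1 to 4 of the 5 were listed at 0. The sum of 5 erythroid markers was 14.5, 826 and 11.6 TPM with CCl4, against 45.9 to 64.9 TPM with vehicle. On the other total it was 81.2, 4180 and 36.2 with CCl4, against 64.1 to 87.6 with vehicle. Its members did not move together. Alas2 held most of the vehicle sums, at 44.13 to 55.55 TPM, against 5.65 to 9.38 TPM with CCl4. Hba-a1, Hba-a2 and Hbb-bs had 0.15 to 4.48 TPM in vehicle livers. They had 67.9, 398 and 354 TPM in CCl4 replicate 2, and 0.17 to 4.41 TPM in the other CCl4 livers. All markers of the hepatocyte, endothelial and Kupffer lists were listed above 0 in every liver. Replicate 3, highest in the mitotic genes, was thus the highest CCl4 liver in the hepatocyte sum and the lowest in the other 4 sums, and replicate 2 was highest in endothelial, neutrophil and erythroid markers, on both totals. The part of cell composition in the values of the cell cycle genes was not tested.

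Of 113 other cell cycle genes found from 8 lists, which were drawn up with earlier results known, limma's fit without a filter called 38 higher and 10 lower with CCl4, with 8.03% of all genes higher and 18.1% lower. Their median change was 0.25, against -0.02 over all genes in that fit. The mitotic lists held most of the genes called higher: 13 of 15 for the spindle, condensin and cytokinesis, 8 of 15 for the kinetochore, checkpoint and cohesion, and 5 of 10 for G2/M entry. The lists of earlier phases held fewer, 4 of 20 for the replication fork and nucleotide supply, 2 of 18 for origin licensing and firing, and 1 of 9 for other G1 cyclins and kinases. Past the filter, 20 of 68 tested were called higher and 15 lower, where 10.3% of all genes were called higher and 51.1% lower. The 20 held under all 3 other scalings, but of the 15 lower genes 1 held, Mcm10, and 7 were called higher without mitochondrial genes in the total. Among named genes called higher, Racgap1, which acts with Kif23 at the central spindle, rose by 1.95 ± 0.25, Incenp, the scaffold of the passenger complex, by 1.90 ± 0.29, and the kinetochore protein Nuf2 by 1.71 ± 0.23. Anln, an actin-binding protein of the cleavage furrow, rose by 1.60 ± 0.26, the passenger subunit Cdca8 by 1.56 ± 0.29 and the condensin subunit Ncapd2 by 1.37 ± 0.21. Ccnd2, a paralog of Ccnd1, rose by 1.53 ± 0.26, and Dbf4, the activator of the origin-firing kinase Cdc7, by 1.27 ± 0.23. Smaller rises were those of Pold1, a DNA polymerase subunit, by 1.00 ± 0.21, of the pocket protein Rbl1 by 0.77 ± 0.17, of the DNA ligase Lig1 by 0.69 ± 0.18 and of the kinase inhibitor Cdkn2d by 0.69 ± 0.20. Mcm10, an origin firing factor, had 2.83, 3.50 and 4.51 TPM in CCl4 livers, against 18.18, 32.42 and 24.37 TPM in vehicle livers, and fell by 2.47 on the log2 scale (limma adjusted p = 7.13e-05), opposite to Mcm3, Mcm5 and Mcm6. Its change was smaller under the other scalings, -1.93 with median ratios, -1.87 with quantiles and -1.02 without mitochondrial genes in the total (limma adjusted p = 0.00087, 0.0021 and 0.00465). The pocket protein Rbl2 fell by 1.41, the thymidine kinase Tk1 by 1.27 and the origin recognition subunit Orc5 by 1.18, and none of these 3 was called lower without mitochondrial genes in the total. The same held for Mnat1 and Ccnh, which form the Cdk-activating kinase with Cdk7, and for the E2F partner Tfdp2, which fell by 0.91, 0.64 and 0.84; Ccnh was called higher there (0.91; limma adjusted p = 0.0168).

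The skin libraries need 3 remarks before their values. Cx3cr1, the gene that defines the labelled population, was low, at 5.28, 0 and 0.28 TPM in CCl4 libraries and 3.91, 0.27 and 0.91 TPM in vehicle libraries. Markers of several cell types were high. Those of T and natural killer cells summed to 893 to 7222 TPM, and those of fibroblasts to 327 to 5443 TPM. Keratinocyte markers summed to 375 to 3186 TPM, and those of monocytes and their macrophages, mostly Lgals3, to 3191 to 8908 TPM. Langerhans cell markers, mostly Cd74 outside CCl4 replicate 3, summed to 320 to 31745 TPM. CCl4 replicate 3 stood apart, with 45.0 TPM of Cd74 against 8268 to 31489 TPM in the other 5 libraries, and with sums of 0.24 TPM for dendritic cell and 5.43 TPM for dermal macrophage markers. The 2 libraries numbered 1 listed 28357 and 28870 genes above 0, against 21328 to 23494 in the other 4.

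In skin no cell cycle gene passed the test between CCl4 and vehicle. Limma called 0 of 13767 genes (0%), 0 of the 29 cell cycle genes that passed the filter, and 0 of 36 without a filter. At an unadjusted p under 0.05 there were 4 of 29 cell cycle genes, against 2.09% of all genes tested, with all adjusted p at 1.00. The values of the mitotic genes nevertheless lay mostly on 1 side: the change was negative for 24 of 25, with a median of -0.82, against -0.13 for S phase genes and 0.31 for G1 cyclins. Over all genes the median was -0.05 past the filter and -0.02 without it. All 3 CCl4 libraries were below all 3 vehicle libraries for 11 of 25 mitotic genes, 0 of 8 S phase genes and 0 of 3 G1 cyclins, where 1.87% of all genes above 0 showed this. Without CCl4 replicate 3 the mitotic median was -0.54, with 23 of 25 negative and 11 of 25 with all CCl4 libraries below all vehicle libraries, as were 3.37% of all genes. The S phase median was then -0.41, close to the mitotic one, with 3 of 8 genes below and 1 above. Without both libraries numbered 1 the mitotic median was -1.02, with 15 of 25 below, as were 9.19% of all genes, and the S phase median was 0.0033, with 0 of 8 below and 2 above.

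The 11 genes were Top2a, Ccna2, Ccnb1, Ccnb2, Aurkb, Birc5, Ube2c, Plk1, Kif20a, Cenpe and Cenpf. Top2a had 1.82, 1.54 and 0.07 TPM in CCl4 libraries, against 7.69, 8.67 and 5.59 TPM in vehicle libraries, a difference of -2.06 ± 0.62 (limma unadjusted p = 0.0085, adjusted p = 1.00). Ccna2 had 1.28, 0.63 and 0.27 TPM with CCl4, against 2.55, 3.01 and 3.06 TPM with vehicle, a difference of -1.20 ± 0.48. Ube2c had 3.59, 8.14 and 2.35 TPM with CCl4, against 10.09, 12.50 and 13.60 TPM with vehicle, and Birc5 had 3.43, 7.06 and 0.63 TPM, against 9.04, 7.46 and 16.11 TPM. CCl4 replicate 3 was the lowest of the CCl4 libraries in each of these 4 genes, and the lowest for 19 of the 25 mitotic genes. Cdk1 and Cdc20, among the genes that changed most in liver, overlapped: Cdk1 had 6.30, 8.50 and 0.78 TPM with CCl4, against 5.41, 8.16 and 10.47 TPM with vehicle. Cdc20 had 5.43, 13.93 and 3.54 TPM with CCl4, against 3.63, 7.08 and 10.57 TPM with vehicle.

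Cenpa differed from the other mitotic genes in skin by its level and its spread. It had 653.97, 69.70 and 17.46 TPM in CCl4 libraries, against 506.90, 135.21 and 37.48 TPM in vehicle libraries, so that the 2 libraries numbered 1 were highest in each group. The other 24 mitotic genes summed to 58.1, 61.63 and 13.77 TPM with CCl4, against 90.59, 123.9 and 87.06 TPM with vehicle, a ratio of means of 0.443, or 0.596 without CCl4 replicate 3. Pcna, at 369.94, 339.38 and 129.97 TPM with CCl4 and 308.77, 241.55 and 153.25 TPM with vehicle, was far above its level in liver, where the assay also differed. Ccnd1 overlapped between the groups, with 18.25, 11.82 and 17.27 TPM with CCl4, against 17.20, 16.70 and 7.14 TPM with vehicle. The helicase genes Mcm3, Mcm5 and Mcm6 differed by -0.77, -0.80 and -0.71, and all overlapped. None of the 113 other cell cycle genes was called in skin.

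**Figure D5:**
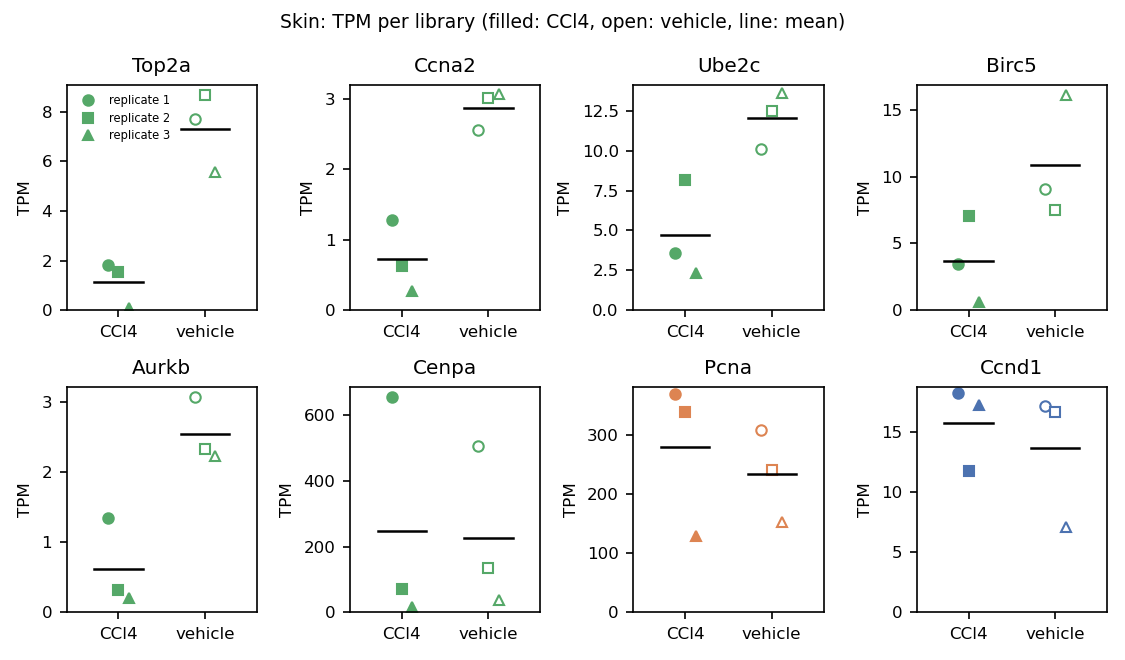
TPM in skin for 6 mitotic genes (green), Pcna (orange) and Ccnd1 (blue), with filled points for CCl4, open points for vehicle, a shape for each replicate and a line at the mean. All CCl4 points lie below all vehicle points for Top2a, Ccna2, Ube2c, Birc5 and Aurkb, and the groups overlap for Cenpa, Pcna and Ccnd1.

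Whether the response differed between the tissues was tested as the liver change minus the skin change. Assay, strain and cell material differ between the tissues and cannot be told apart from the tissue. Fitted without a filter, 3 of the 36 cell cycle genes had a larger change in liver at a limma adjusted p under 0.05 and none a smaller one, where 19 of 23714 genes (0.0801%) had a larger one and 47 (0.198%) a smaller one. They were the mitotic genes Top2a, by 4.58 ± 0.61, Ube2c, by 4.62 ± 0.77, and Ccna2, by 3.24 ± 0.53 (limma adjusted p = 0.0155, 0.0408 and 0.039). Without skin CCl4 replicate 3 the count in this fit was 1, with 9 of 23714 genes called larger. Past the filter in both tissues 23 were tested and 4 called larger, these 3 and Aurkb, by 2.68 ± 0.47 (limma adjusted p = 0.0409, against 0.0591 without a filter), with 0.151% of 9255 genes larger and 0.0648% smaller. In all 4 no vehicle liver reached 1 TPM, so they passed the filter through their CCl4 livers, as did 17 of the 23, and the count among those tested does not stand alone. In the filtered fit Cdk1, with 4.36 ± 0.86, and Ccnd1, with 2.52 ± 0.60, did not pass (limma adjusted p = 0.0636 and 0.0733). Pcna and Tyms had differences of -0.24 ± 0.62 and -0.04 ± 0.74. The count of 4 past the filter moved with single libraries. It was 2 without liver CCl4 replicate 1, 7 without liver CCl4 replicate 3, and 1 without liver vehicle replicate 1, 2 or 3. It was 11, 7 and 2 without skin CCl4 replicates 1, 2 and 3, and 2, 1 and 15 without skin vehicle replicates 1, 2 and 3. The number of all 9255 genes called larger moved as well, from 14 with every library. It was 5 and 67 in those liver CCl4 fits, and 3 without any 1 vehicle liver. In the skin fits it was 132, 59 and 13 without CCl4 replicates 1, 2 and 3, and 7, 4 and 179 without vehicle replicates 1, 2 and 3. On the total without mitochondrial genes 20 of the same 23 were called larger in liver, where 5.88% of all genes were.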

How the data were processed

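Expression in 6 liver and 6 skin libraries was deposited by the authors as 1 table of TPM. The submitters' processing notes name the build GRCm39 and the tools HISAT2, RSEM, StringTie and fastp, without versions or roles. The labels give 1 poly(A) library protocol for all libraries, which does not describe smart-seq. TPM keeps no depth, so depth is unknown and no counting interval is given. A 0 may stand for a failed estimate. Symbols were found for 51884 of 57180 IDs. All 12 columns matched a label.

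Values were analysed as log2(TPM + 1) with limma 3.58.1 in R 4.3.3 (lmFit, eBayes with trend, two-sided), each tissue by itself, over genes at 1 TPM or more in 3 or more of 6 libraries. P-values were Benjamini-Hochberg adjusted over all genes tested and called under 0.05. The difference between tissues was an interaction contrast over 4 group means. The script was tested on simulated data. Single genes outside the filter were given two-sided exact permutation tests. Limma p-values set the difference between groups against the spread between the libraries of a group, which is moderated over all genes tested. All members are named, and of each other list the up to 3 called genes with the lowest p. Members and lists were chosen with earlier results of these data known. Near copies of mitochondrial genes are pseudogenes with at least 50% of their 25-base words in those genes, found with GENCODE M21 transcripts. Alternatives were pseudocounts, filters, scalings, a replicate block and single libraries left out.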

Additional observations from a re-analysis of the deposited data

Results flagged for a closer look

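The change with CCl4 differed between liver and skin for 4 mitotic genes, by a limma interaction test over all 12 libraries with the filter. Among all 9255 genes tested, 14 (0.151%) had a larger change in liver. Assay, strain and cell material also differ between the tissues and cannot be told apart from the tissue. In none of the 4 did a vehicle liver reach 1 TPM, so they entered that test through their CCl4 livers. Without a filter 3 of them were called, and Aurkb was not (limma adjusted p = 0.0591). In that fit 19 of 23714 genes (0.0801%) had a larger change in liver. With skin CCl4 replicate 3 also left out the count was 1, where 9 of 23714 genes were called larger. The filtered count of 4 ran from 1 to 15 with 1 library left out, where 3 to 179 of all genes were called larger. The liver change minus the skin change on the log2(TPM + 1) scale was 3.24 for Ccna2, 2.68 for Aurkb, 4.62 for Ube2c and 4.58 for Top2a. In each of them all 3 CCl4 libraries were above all vehicle libraries in liver, and below them in skin. The skin difference by itself passed for none of the 4 (limma adjusted p = 1.00).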

How the results depend on the processing

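The count of 23 cell cycle genes higher in liver was 3 where the filter asked for 5 TPM and 5 were tested, and 36 without a filter on TPM without mitochondrial genes and copies, an alternative chosen after seeing the data. It was 17 in a fit over all 12 libraries, 24 under quantile normalization, and 22 to 23 with 1 library left out. Among all genes tested, those called higher were 1073 of 10385 in the main fit and 321 of 5702 with the filter at 5 TPM. They were 8997 of 24966 without a filter on the other total. The fit over all 12 libraries gave 334, quantile normalization 1778, and leaving 1 library out 967 to 1105. Of the genes that failed the filter, 9 were higher without a filter and 11 on the other total, where 8.03% and 36% of all genes were called higher. The skin count was 0 under every alternative run. The count of 4 genes with a larger change in liver was 13 and 2 with pseudocounts of 0.1 and 5, 0 where the filter asked for 5 TPM (2 of the 5 tested had an unadjusted p under 0.05), 18 under median-ratio scaling, 12 under quantile normalization, 20 without mitochondrial genes, 1 to 15 with 1 library left out, and 1 without a filter and skin CCl4 replicate 3. Among all genes tested, those called larger in liver moved with that count. They were 14 in the main fit, 127 and 7 with those pseudocounts, and 8 of 4585 with the filter at 5 TPM. Median-ratio scaling gave 165, quantile normalization 67, the total without mitochondrial genes 543, and leaving 1 library out 3 to 179. The replicate block gave 23 in liver, 0 in skin and 13 for the difference, where 1146, 0 and 185 of all genes were called higher. Same-numbered libraries correlated at -0.038, 0.08 and 0.068 in liver and 0.587, 0.092 and 0.35 in skin. The 0.587 was the highest among all pairs of a CCl4 and a vehicle library of a tissue. The labels do not say that a number marks a shared animal or day, so the numbers were not taken as pairs. These are the numbers in the titles, which the block also used. The library names number CCl4 replicate 3 of both tissues as 4 and skin vehicle replicates 2 and 3 as 4 and 5, and under them the skin pairs are those at 0.587 and -0.185. A block on the library-name numbers was not run. Pcna reversed to 0.50 under median-ratio scaling, 0.68 under quantile normalization (limma adjusted p = 0.041), 1.578 without mitochondrial genes, with or without a filter, and ranged over -0.211 to 0.077 with 1 library left out. Tyms reversed to 0.45, 0.39 and 1.501 in the same scalings, with or without a filter for the last, and ranged over -0.355 to 0.142 with 1 library left out, above 0 in 4 of 6 cases (0.142, 0.051, 0.034 and 0.018). Scaling also moved the median of all genes, from -0.59 to -0.11, -0.15 and 0.85, and the split of 1073 higher and 5304 lower genes to 1841 and 2720, 1778 and 2574, and 6922 and 435. The causes were not tested.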
